A study of Mus musculus with 53 samples.

Results

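Eed-null mouse embryonic stem (ES) cells at day 6 of withdrawal of leukaemia inhibitory factor (LIF) were set against Eed-null ES cells at day 0, which were still undifferentiated. The arrays were chosen by their titles, which place 2 Affymetrix expression arrays at day 6 and 5 at day 0, or 7 of the 53 arrays of the series. Both groups carry the loss of Eed, so the comparison follows the response to LIF withdrawal within 1 genotype. Another 2 Eed-null arrays were taken at day 2 of withdrawal. The same time points exist for Ezh2-null cells, with 5 arrays at day 6 and 6 at day 0, and for wild-type cells, with 5 at day 6 and 7 at day 0. The wild-type arrays come from lines named J1 and CJ7, with E14tg1 added at day 0. The mutants' titles name no parental line, so genotype and line cannot be told apart between genotypes. The Eed allele and the number of clones are not given in the sources used here. Replicates are called biological in the titles, but what was repeated is not said, and every p-value below measures only the spread between these samples.

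Eed is a core subunit of Polycomb repressive complex PRC2. It binds the histone H3 mark that the complex itself deposits, and it is needed for the activity of the catalytic subunit Ezh2, which the related enzyme Ezh1 can partly replace. PRC2 marks the promoters of many silent regulators of development in ES cells, and ES cells without Eed self-renew. LIF binds the receptor Lifr together with Il6st, activates Jak kinases and the transcription factor Stat3, and so sustains naive pluripotency factors such as Klf4, Tfcp2l1 and Esrrb. When LIF is withdrawn, mouse ES cells usually leave this state, pass through one like the epiblast around implantation, and then turn on genes of the primitive streak, mesoderm, endoderm and surface layers.

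The values are the authors' linear intensities, 1 per probe set, with the brightest probe set standing for its gene. Differences were fitted with limma on log2(intensity + 32) over all 53 arrays and are given as a log2 difference ± its standard error, with p-values adjusted by Benjamini and Hochberg over 13807 genes. The terms rose and fell are kept for genes with an adjusted p under 0.05 and a change of at least 2-fold. Day-0 values are listed in the order of replicates 1 to 5.

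A score built from the differences within 2536 pairs of probe sets for the same gene separated 14 of the 53 arrays from the others. These 14 arrays scored between -23.0 and -16.0, and the others scored -6.7 or more. Both Eed-null arrays at day 6, at -18.4 and -20.7, and both at day 2 were among the 14, while the 5 at day 0 lay between -6.7 and 6.1. The labels name no batch, so what the 2 sets of arrays are is not known, and in the day-6 comparison day and array set cannot be told apart within this genotype. Wild-type and Ezh2-null arrays at days 2 and 6 occur in both sets, which allows a fit with the set as a block. No Eed-null group spans both sets, so the set term comes wholly from the other genotypes and is assumed to be equal in Eed-null cells. Of wild-type arrays at these days, those outside the 14 are J1. Those among the 14 are CJ7, except day-6 replicate 3, a J1 array. The block fit was added after the data were seen, and its values are printed, singly or as a range, where it ends the call of a named gene. The 5 day-0 arrays also differed in 8 markers of fibroblasts, the feeder cells on which the cultures had been grown and which were depleted before harvest. Their summed intensity was 1147 to 1168 at day 6, against 459 to 7251 at day 0, where replicate 5 was the lowest. Col1a1, a fibrillar collagen, read 182 and 181 at day 6, against 788, 751, 518, 647 and 9.0 at day 0. The part of feeder RNA and of the array set in the results below was not tested beyond the values printed.

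**Figure D1:**
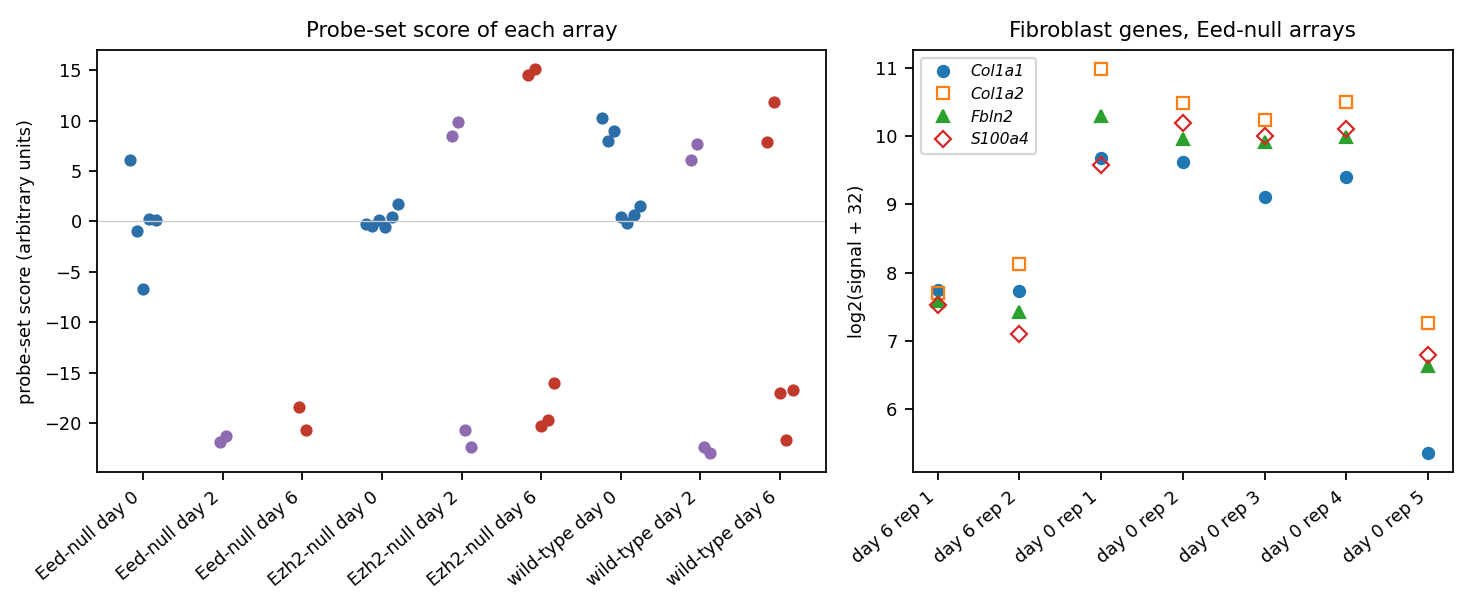
The left panel plots the probe-pair score, in arbitrary units, of every array of the 3 genotypes by group and day of LIF withdrawal (blue day 0, purple day 2, red day 6); all Eed-null arrays at days 2 and 6 lie at -16.0 or below and all at day 0 lie at -6.7 or above. The right panel plots log2(intensity + 32) of the fibroblast genes Col1a1, Col1a2, Fbln2 and S100a4 on each Eed-null array at days 6 and 0, where day-0 replicate 5 is the lowest of the 5 day-0 arrays.

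The targeted gene does not check the labels here. Eed read 1644 and 1341 in Eed-null cells at day 6, against 2982, 2819.9, 2823, 3057 and 3099 at day 0. The transcript was thus detected in cells labelled null, and the position of the probes relative to the mutation is not known here. Its difference was -0.98 ± 0.18 (adjusted p = 2.5e-05), just under 2-fold. The day-6 arrays lay wholly below those of day 0, as for 28.9% of all tested genes. Of the markers of ES cells, Pou5f1, Nanog, Sox2, Zfp42 and Esrrb summed to 7274 to 7322 at day 6, against 16847 to 17674 at day 0.

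At day 6, 766 genes (5.55% of those tested) rose and 633 (4.58%) fell, together 1399 (10.1%). The arrays of the groups did not overlap for 764 of the genes that rose (5.53% of all) and 619 of those that fell (4.48%), but with 2 arrays against 5 the arrays of 3755 genes (27.2%) lay wholly above and those of 3996 (28.9%) wholly below, whatever their size of change. The median difference over all genes was -0.03. With the array set as a block, 909 rose and 253 fell, and 676 of the 1399 genes kept their call and direction. The count of falls moved by more than 1.5 times with this choice, and the count of rises did not.

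Genes of epithelia, adhesion and growth-factor signalling were among the 12 largest rises. The Eph receptor ligand Efna5 read 1412 and 1359 at day 6, against 47.3, 36.4, 56.2, 35.2 and 46.8 at day 0, a difference of 4.22 ± 0.34 (adjusted p = 5.8e-13). Pmp22, a tetraspan protein of myelin and epithelial membranes, read 4906 and 4187 at day 6, against 286, 292, 188, 238 and 249 at day 0 (4.03 ± 0.17, adjusted p = 3e-22). Krt19, a keratin of simple epithelia, read 4179 and 3787 at day 6, against 350.3, 273, 234, 162 and 158 at day 0 (3.96 ± 0.54, adjusted p = 2.2e-07). In all 3 genes the lower day-6 array lay more than 10 times above the highest day-0 array. The transmembrane protease Tmprss2 read 1407 and 1464 at day 6, against 60.0 to 83.1 at day 0 (3.82 ± 0.37). Irs1, which couples insulin and IGF receptors to their kinases, read 963 and 990.1 at day 6, against 23.8 to 64.6 at day 0 (3.64 ± 0.28). The adhesion receptor Flrt3 (3.47 ± 0.31), the iron exporter Slc40a1 (3.33 ± 0.34), the chaperone Cryab (3.28 ± 0.52) and skeletal actin Acta1 (3.49 ± 0.69), which were 1.98 and 1.98 once the array set was a block, completed the non-imprinted part of the list together with Wls, the carrier that brings Wnt proteins to the cell surface. Wls read 1983 and 2210.4 at day 6, against 289, 152, 136, 160.3 and 81.6 at day 0 (3.52 ± 0.35, adjusted p = 1.2e-10). The largest difference was that of the imprinted gene Nnat. It read 2645 and 2706 at day 6, against 97.2, 90.2, 84.7, 82.3 and 169.6 at day 0, where replicate 5 was the highest, and its difference of 4.34 ± 1.09 (adjusted p = 0.0015) was 1.93 (adjusted p = 0.13) with the array set as a block.

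The 12 largest falls held pluripotency genes, metabolic enzymes and chromatin factors. Klf4, a naive pluripotency factor downstream of Stat3, read 265 and 254 at day 6, against 2255, 1979, 1891, 2146 and 2091 at day 0 (-2.85 ± 0.31, adjusted p = 9e-10). Tet1, the enzyme that oxidises methylcytosine in ES cells, read 367 and 357 at day 6, against 2061, 2098, 2148, 2393 and 2338 at day 0 (-2.50 ± 0.32, adjusted p = 4.2e-08). The histone acetyltransferase Kat6b read 313 and 279 at day 6, against 1799.8 to 2273 at day 0 (-2.65 ± 0.37). For each of the 3 genes both day-6 arrays read under 20% of the lowest day-0 array. Srgn, the core protein of a secretory proteoglycan that endoderm and blood cells make, showed the largest fall, with 27.2 and 17.3 at day 6, against 783, 529, 429.6, 511 and 172 at day 0 (-3.13 ± 0.39, adjusted p = 2.3e-08). Its lowest day-0 array was replicate 5, the one with the least fibroblast signal. The others were phosphofructokinase Pfkp (-2.93 ± 0.34), mitochondrial adenylate kinase Ak4 (-2.67 ± 0.44), uridine phosphorylase Upp1 (-2.36 ± 0.48), the chromodomain protein Cdyl2 (-2.45 ± 0.29), the meiotic recombination factor Ccnb1ip1 (-2.40 ± 0.33), the DNA methylation cofactor Dnmt3l (-2.39 ± 0.33), the zinc-finger gene Zfp229 (-2.69 ± 0.47) and Fam25c (-2.33 ± 0.20).

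**Figure D2:**
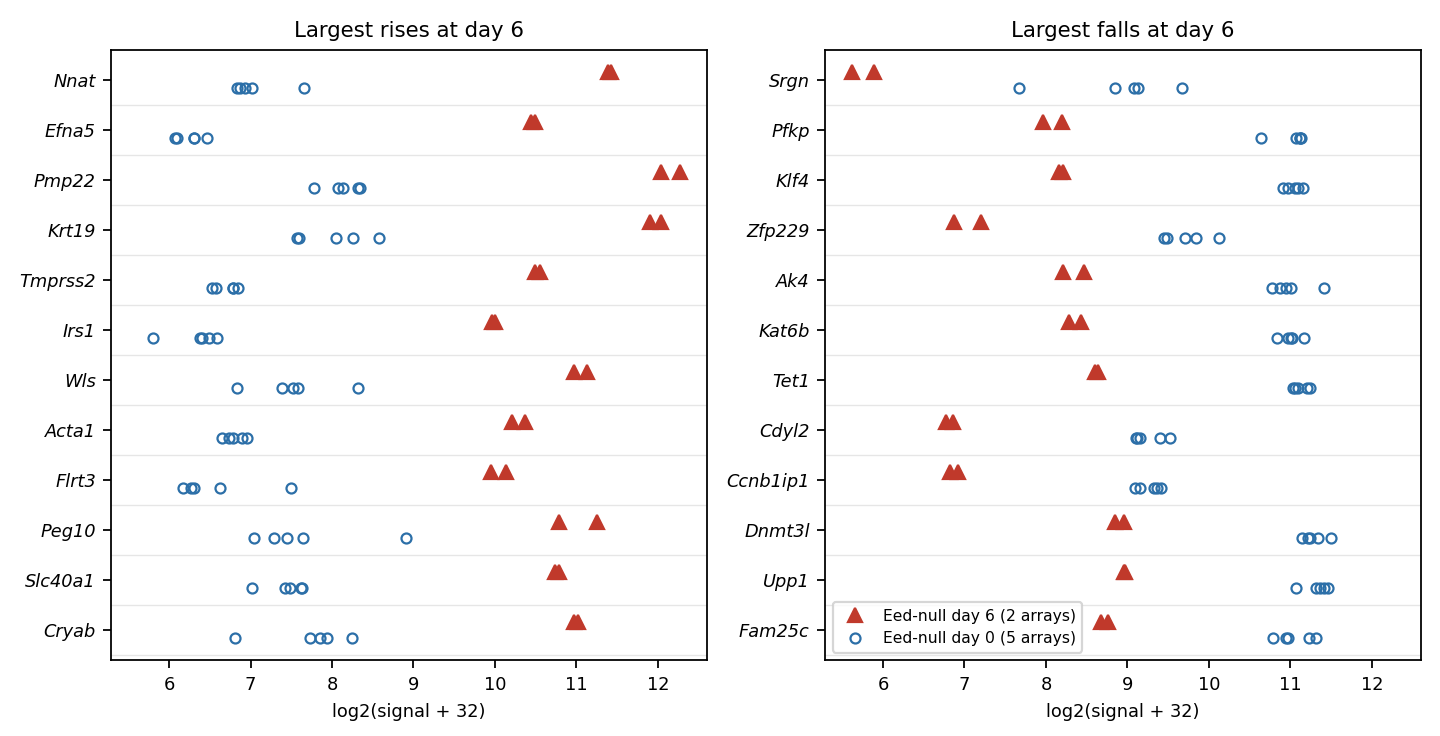
Values of log2(intensity + 32) for the 12 genes with the largest rises and the 12 with the largest falls, with triangles for the 2 Eed-null arrays at day 6 and circles for the 5 at day 0. The 24 genes were picked among those whose groups do not overlap, so the gap between the groups was set by the choice. It exceeds 10 times in intensity for Efna5, Pmp22 and Krt19.

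Of 31 tested genes of naive pluripotency (2 more of the list of 33 were not tested), 21 fell and 0 rose, and the median was -1.34. This count and those of the lists below stand beside 5.55% of all tested genes that rose and 4.58% that fell. Klf4, Fbxo15 (-2.24 ± 0.29), an F-box gene used as a marker of ES cells, and Tdgf1 (-2.15 ± 0.39), a co-receptor of Nodal, fell the most beside Tet1 and Dnmt3l. The nuclear receptor Esrrb read 799.6 and 708 at day 6, against 2328 to 2649 at day 0 (-1.68 ± 0.36, adjusted p = 0.00023). The nuclear receptor Nr0b1 read 321 and 261 at day 6, against 810.2 to 1153 at day 0 (-1.68 ± 0.41). Dppa2 (-1.59 ± 0.31) and Dppa4 (-1.24 ± 0.12), partner proteins that bind CpG-rich promoters in ES cells, and the cell cycle factor Mybl2 (-1.34 ± 0.29) fell too. Of the core trio, Pou5f1 read 1964 and 1847 at day 6, against 2479.8, 3152, 3296, 3037 and 3247 at day 0, a difference of -0.66 ± 0.26 (adjusted p = 0.043) that was under 2-fold. Nanog read 1334 and 1464 at day 6, against 3478 to 3813 at day 0 (-1.37 ± 0.31), and Sox2 read 1446 and 1454 at day 6, against 3032 to 3619.8 at day 0 (-1.18 ± 0.37). For all 3 genes day 6 lay wholly below day 0, as for 28.9% of all tested genes. With the block for array set Nanog was -0.86 and Sox2 -0.43, both under 2-fold. Without day-6 replicate 1 the adjusted p of Sox2 was 0.071, and without replicate 2 it was 0.069. Klf2 (-0.39), Zfp42 (-0.98), Prdm14 (-0.14), Nr5a2 (-0.83) and Manba (-0.83) also lost their calls with the block. The block fit called 19 of the 31 lower, among them genes not called without it. Of the genes that lost their calls, Klf2 and Prdm14 did not pass when either day-6 array was left out (adjusted p of 0.056 to 0.11). Nr5a2 did not pass without replicate 2 (0.092). Esrrb (-0.80) and Tfcp2l1 (-0.63) fell short of 2-fold where all probe sets of a gene were averaged. Dppa5a, an RNA-binding protein abundant in ES cells, read 7263 and 7588 at day 6, against 8148 to 8392 at day 0, and its difference of -0.16 ± 0.23 was far under the threshold.

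Socs3 and Tfcp2l1, readouts of LIF signalling, fell at day 6 and were lower still at day 2. Socs3, the feedback inhibitor that Stat3 induces, is shown with its promoter, as is Esrrb, because both fell and both hold the Stat motif TTCNNNGAA in the 250 bases before the start of transcription. The sequences are those of RefSeq on GRCm38.p6, 5′ to 3′ on the gene's strand, with the motif in capitals. The Socs3 window is chr11:117969367-117969616 on the minus strand and its motif starts 154 bases before the start site. The Esrrb window, 1 of 2 promoters listed for that gene, is chr12:86360867-86361116 on the plus strand and its motif starts 178 bases before the start site.
Socs3: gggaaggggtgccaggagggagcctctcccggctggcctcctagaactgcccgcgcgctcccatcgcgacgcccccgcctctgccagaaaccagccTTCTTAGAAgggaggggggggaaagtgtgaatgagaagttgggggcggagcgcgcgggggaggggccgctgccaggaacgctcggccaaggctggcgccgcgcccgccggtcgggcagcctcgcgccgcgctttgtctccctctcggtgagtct
Esrrb: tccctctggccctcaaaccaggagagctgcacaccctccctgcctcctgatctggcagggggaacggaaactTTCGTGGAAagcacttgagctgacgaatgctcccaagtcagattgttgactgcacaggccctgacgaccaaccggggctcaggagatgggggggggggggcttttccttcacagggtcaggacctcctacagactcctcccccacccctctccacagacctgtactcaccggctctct
The motif reads the same on both strands, and it occurred in 642 of the 11074 windows of tested genes (5.8%), in 25 of 506 (4.94%) for genes that fell and in 24 of 619 (3.88%) for genes that rose. In the naive list 2 of 20 windows held it, those of Esrrb and Zscan10, and in the LIF list 1 of 16, that of Socs3. The Socs3 window holds 26 CpG sites and the Esrrb window 6. A match describes letters and is not evidence of binding.

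Socs3 read 1626, 1669, 1477, 1804 and 1113 at day 0, 121 and 119 at day 2 and 459.8 and 501 at day 6. It fell by 3.35 on the log2 scale between days 0 and 2, was higher by 1.75 ± 0.21 at day 6 than at day 2, and the whole interval gave -1.60 ± 0.18 (adjusted p = 2.6e-09). Tfcp2l1, a Stat3 target that can sustain self-renewal, followed the same course with 1708 to 2111 at day 0, 199.7 and 218 at day 2 and 570.1 and 589 at day 6 (day 6 against day 0 -1.64 ± 0.38). The rise after day 2 lies between arrays of 1 set. Of 17 tested genes of the LIF and Stat3 pathway, 5 fell at day 6, namely Socs3, the survival kinase Pim3 (-1.41 ± 0.18, and -0.93 with probe sets averaged), Gbx2 (-1.42 ± 0.20), Klf4 and Tfcp2l1. The receptor subunits Lifr (-0.64 ± 0.36) and Il6st (-0.21 ± 0.28), Stat3 itself (0.81 ± 0.21) and its target Bcl3 (-0.90 ± 0.17) did not pass the threshold. The kinase Jak1 read 1414 and 1446 at day 6, against 355 to 581 at day 0 (1.58 ± 0.26), but 0.77 with the array set as a block.

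**Figure D3:**
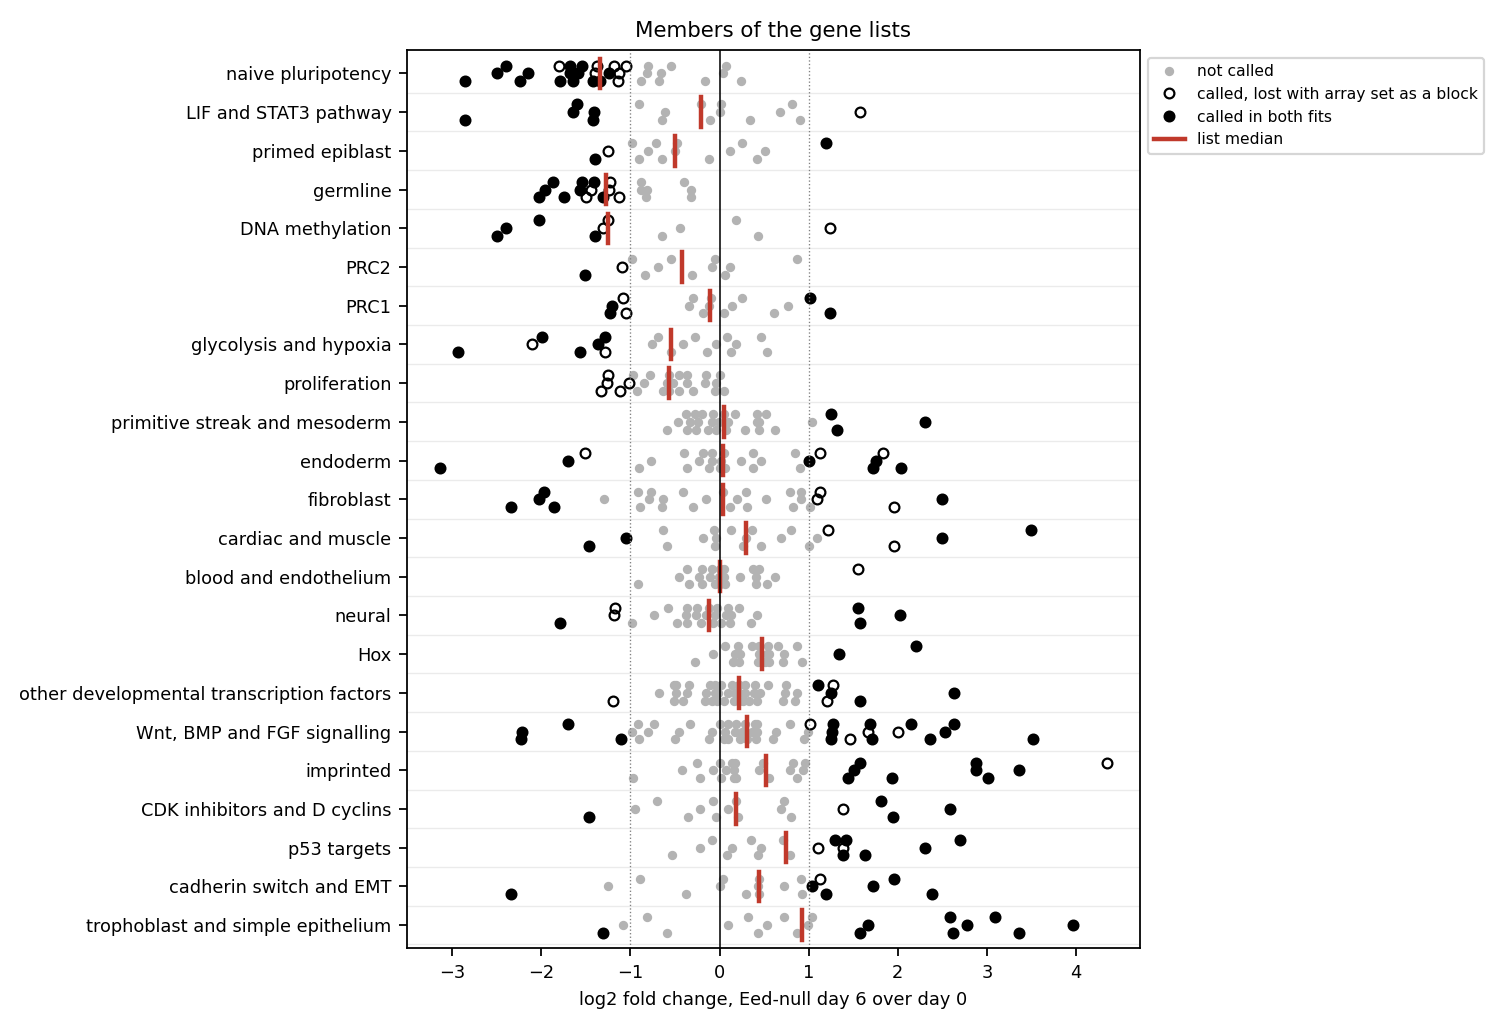
Log2 differences between Eed-null day 6 and day 0 for the tested members of each gene list, where black points passed the test in both fits, open points lost their call with the array set as a block, grey points were not called and red bars are list medians. Naive pluripotency, germline and DNA methylation genes lie mostly below 0, and trophoblast, imprinted and p53 target genes mostly above.

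Genes of the primed epiblast, the state that follows naive pluripotency, were not higher at day 6: of 15, 1 rose and 2 fell. Over all tested genes 5.55% rose and 4.58% fell. Cdh2, the N-cadherin of epiblast, mesoderm and neural cells, read 384 and 285 at day 6, against 105 to 154 at day 0 (1.19 ± 0.32), and without day-6 replicate 1 its difference was 0.99 (adjusted p = 0.075). The de novo methyltransferases Dnmt3b (-1.40 ± 0.26) and Dnmt3a (-1.25 ± 0.30) fell, the second only without the block (-0.75 with it). 

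Of 29 tested primitive streak and mesoderm genes 3 rose and 0 fell, beside 5.55% and 4.58% of all tested genes. The list median was 0.05, and with the array set as a block 6 rose and 1 fell. Wnt3, the ligand that starts the streak in the embryo, read 69.6 and 57.2 at day 6, against 5.8, 7.9, 12.3, 9.4 and 4.7 at day 0 (1.25 ± 0.21, adjusted p = 5.4e-06), which is dim at both times. Its Wnt-potentiating partner Rspo3 read 119 and 98.3 at day 6, against 15.4 to 39.7 at day 0 (1.32 ± 0.25). Both genes were above all 5 day-0 arrays on both day-6 arrays, as were 27.2% of all tested genes. Amot, an angiomotin that controls YAP at epithelial junctions, read 1562 and 1279.6 at day 6, against 177 to 496 at day 0 (2.30 ± 0.38). With probe sets averaged, Rspo3 (0.71) and Amot (0.95) stayed under 2-fold. Of the streak transcription factors, Mixl1 read 36.2 and 30.1 at day 6, against 33.2, 23.4, 36.8, 32.5 and 43.3 at day 0 (-0.01 ± 0.40), and Eomes read 75.2 and 56.3 at day 6, against 96.5, 87.0, 171, 115 and 116 at day 0 (-0.59 ± 0.41). Hand1, of lateral mesoderm and trophoblast, differed by 1.04 ± 0.44 (adjusted p = 0.059). In the marker check, 5 streak and mesoderm genes summed to 466 to 489 at day 6, against 420 to 477 at day 0.

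Of 20 simple epithelial and trophoblast genes, 8 rose and 1 fell, with a median of 0.93. Krt7 read 1635 and 1708 at day 6, against 117 to 272 at day 0 (3.09 ± 0.27, adjusted p = 5.3e-12). Krt18 read 9552 and 9386 at day 6, against 908 to 2077 at day 0 (2.78 ± 0.65), and its pairing partner Krt8 read 8051 and 8177 at day 6, against 926 to 1893 at day 0 (2.62 ± 0.73). Both day-6 arrays lay above every day-0 array for each of these keratins, as for 27.2% of all tested genes. Esx1, an X-linked homeobox gene of the placenta, read 738 and 876 at day 6, against 119.5, 101, 127, 85.6 and 111 at day 0 (2.58 ± 0.17, adjusted p = 2.2e-15). The transcription factors Tfap2a (1.67 ± 0.16) and Gata3 (1.58 ± 0.19), which act in trophoblast and in surface ectoderm, and the placental gene Peg10 (3.36 ± 0.61, but 1.30 with the block) completed the 8. Rhox9 fell (-1.31 ± 0.35). The defining trophoblast factor Cdx2 read 143 and 147 at day 6, against 94.4 to 127 at day 0 (0.32 ± 0.18), Tpbpa of the placental spongiotrophoblast differed by 0.10 ± 0.15, Tfap2c by -1.08 ± 0.51 (adjusted p = 0.086) and Elf5 was not tested. The trophoblast marker sum of 1118 to 1246 at day 6, against 346 to 417 at day 0, therefore rested mainly on Esx1. In these bulk samples more cells of a type and more RNA per cell cannot be told apart.

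Of 19 genes of cell junctions and of the switch between epithelial and mesenchymal states, 6 rose and 1 fell. Cldn6, a tight-junction claudin of early epithelia, read 3123 and 2996 at day 6, against 489 to 643 at day 0 (2.38 ± 0.28). Cldn7 (1.72 ± 0.29) and the adhesion adaptor Tgfb1i1 (1.96 ± 0.28) rose too. Grhl2, a transcription factor of epithelial identity, read 474 and 496 at day 6, against 185 to 285 at day 0 (1.04 ± 0.17), close to the threshold: 0.99 without day-0 replicate 2 and 0.53 with probe sets averaged. Cdh1, the E-cadherin of epithelia and ES cells, differed by 0.72 ± 0.16, under 2-fold. Vim (1.13 ± 0.38), an intermediate filament of mesenchyme, lost its call with the array set as a block (0.19).

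Endoderm genes split, with 6 of 28 higher and 3 lower and a median of 0.04. The endoderm and node factor Foxa2 read 329 and 277 at day 6, against 110.4, 31.5, 36.0, 32.6 and 58.8 at day 0 (2.03 ± 0.36, adjusted p = 2.2e-05). Both day-6 arrays were over 2 times the highest day-0 array, which was replicate 1. The basement membrane collagen Col4a1 read 3791 and 3833 at day 6, against 811 to 2031 at day 0 (1.75 ± 0.28), and Col4a2, its partner chain, rose too (1.72 ± 0.28). Cubn, an endocytic receptor of visceral endoderm, read 54.5 and 73.3 at day 6, against 86.6 to 584 at day 0 (-1.70 ± 0.35). The calls of Lrp2 (1.83 ± 0.39), Sparc (1.13 ± 0.20) and Lama1 (-1.51 ± 0.43) ended with the block, at 0.87, 0.85 and -0.64. Dab2 (1.00 ± 0.28) was under 2-fold without day-0 replicate 3 (0.98) or replicate 5 (0.78). Gata6 (0.85 ± 0.22), Gata4 (-0.08 ± 0.23) and Sox17 (-0.40 ± 0.47), the transcription factors of primitive endoderm, did not pass, and Afp, a product of visceral endoderm, stayed near 0 with 7.2 and 14.4 at day 6, against 3.1 to 5.1 at day 0.

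Fibroblast genes went both ways, 4 of 29 higher and 4 lower. The lysyl oxidase Lox read 65.6 and 54.6 at day 6, against 1687, 540.2, 494, 527 and 44.4 at day 0 (-2.34 ± 0.69), and Col1a2 read 177 and 248 at day 6, against 1983, 1395, 1169, 1417 and 122 at day 0 (-1.97 ± 0.58). In both, day-0 replicate 5 lay below the day-6 arrays while replicates 1 to 4 lay far above them. Fbln2 (-1.86 ± 0.71) and S100a4 (-2.02 ± 0.61) made up the falls. All 4 were lowest at day 0 in replicate 5, as were 96 (15.2%) of the 633 genes that fell and 15.3% of all tested genes; without that array 7 fibroblast genes fell. Fitted on the compared arrays alone, none of the 4 passed, with adjusted p between 0.058 for Lox and 0.1 for Fbln2. Without day-6 replicate 1 Col1a2 (0.09) and Fbln2 (0.13) did not pass, and without replicate 2 Lox (0.067), S100a4 (0.093) and Fbln2 (0.16) did not. Tagln, Acta2, Vim and Ccn1, a secreted matricellular protein, were the 4 that rose. Tagln, an actin-binding protein of smooth muscle, read 5369.6 and 5316 at day 6, against 541 to 1152 at day 0 (2.49 ± 0.69), while with the block Acta2 (1.21), Vim and Ccn1 (0.30) were no longer called. Without day-0 replicate 5 Vim (0.76) and Ccn1 (adjusted p = 0.058) did not pass either.

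Of 24 tested Hox genes, 2 rose and 0 fell, beside 5.55% and 4.58% of all tested genes, with a median of 0.48. With the block 4 rose, and the other 14 on the list of 38 were not tested. Hoxd9 read 542 and 525 at day 6, against 62.9 to 127 at day 0 (2.20 ± 0.21), and Hoxc8 read 206 and 183 at day 6, against 44.7 to 73.9 at day 0 (1.34 ± 0.33). Hox genes pattern the body axis, and Hoxd9 acts in the limbs too. Of 47 other developmental transcription factors, 6 rose and 1 fell. Msx2, a homeobox target of BMP signalling, read 728 and 727 at day 6, against 71.1 to 117 at day 0 (2.63 ± 0.23). Gata3 rose as above, as did Meis1 (1.10 ± 0.39) and Meis2 (1.25 ± 0.32), cofactors of Hox proteins, though neither with probe sets averaged (0.53 and 0.79), and Meis1 had an adjusted p of 0.11 and 0.13 when 1 day-6 array or the other was left out. Foxq1 (1.27 ± 0.30), Gli3 (1.21 ± 0.17) and En2 (-1.20 ± 0.17) lost their calls with the block, at 0.63, 0.89 and -0.96.

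Neural genes were divided, with 3 of 29 higher and 3 lower, beside 5.55% and 4.58% of all tested genes. Sox4 read 2821 and 2708 at day 6, against 590.4 to 748 at day 0 (2.02 ± 0.16), and the related Sox11 rose by 1.55 ± 0.21; both act in many differentiating progenitors. Zic1 read 309 and 303 at day 6, against 64.2 to 106 at day 0 (1.57 ± 0.29, and 0.94 with probe sets averaged). The microtubule regulator Stmn2 fell (-1.79 ± 0.32), as did Sox2 and Zic5 (-1.17 ± 0.25), the last not with the block (-0.57). The neural marker sum was 167 to 211 at day 6, against 302 to 477 at day 0. Of 24 blood and endothelial genes only Runx1 rose (1.55 ± 0.28), and not with the block (0.73), and the blood marker sum was 256 to 283 at day 6, against 205 to 256 at day 0. Of 21 cardiac and muscle genes 4 rose, with Acta1 and Tagln in both fits and Tnnc1 (0.97) and Acta2 not with the block, and the myosin light chains Myl7 (-1.05 ± 0.25) and Mylpf (-1.46 ± 0.42) fell. Without day-6 replicate 2 Mylpf had an adjusted p of 0.083, and without day-0 replicate 4 Myl7 was -0.99. The cardiomyocyte marker sum was 318 to 427 at day 6, against 365 to 457 at day 0.

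Among 49 genes of Wnt, BMP and FGF signalling, 14 rose and 4 fell. On the Wnt side, the ligand Wnt6 read 1392 and 1409 at day 6, against 166 to 241 at day 0 (2.53 ± 0.23), and the receptor Fzd2 read 1063 and 1102 at day 6, against 178 to 192 at day 0 (2.36 ± 0.21). The secreted inhibitor Dkk1 rose as well (1.71 ± 0.31). Wnt3 and Wls rose as given above. The feedback gene Axin2, a direct readout of the pathway, differed by 0.17 ± 0.16 and was not called. Other Wnt genes of the list, among them Wnt5a and Sp5, were not called either. Wnt4 rose (1.46 ± 0.24) but not with the block (0.70). On the BMP side, the ligand Bmp2 read 234 and 179 at day 6, against 15 to 94.9 at day 0 (1.69 ± 0.29), and Id3, an inhibitor of helix-loop-helix factors that BMP induces, read 2287 and 2407 at day 6, against 439 to 703 at day 0 (2.15 ± 0.34). Id1 (2.00 ± 0.45) and the BMP antagonist Nog (1.66 ± 0.29) rose without the block, and were 0.86 and 0.94 with it. On the FGF side the ligand Fgf4, which ES cells secrete, read 233 and 196 at day 6, against 896 to 1321 at day 0 (-2.22 ± 0.24). Spry4 (-2.23 ± 0.23) and Etv5 (-1.70 ± 0.29), targets of ERK signalling, fell with it, as did Spry2 (-1.10 ± 0.17), while the paralogue Spry1 rose (1.26 ± 0.14). Fgfr2 (1.02 ± 0.19) was 0.61 with the block, and without day-6 replicate 2 it was 0.95 and Spry2 was just short of the threshold. Id2 (1.27 ± 0.42) had an adjusted p of 0.094 when either day-6 array was left out.

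In the Nodal pathway, with 13 tested genes, Tdgf1 and the inhibitor Lefty2 (-1.62 ± 0.44) fell and the receptors Acvr1b (1.01 ± 0.21) and Acvr2b (1.07 ± 0.32) rose, with Lefty2 at -0.94 and Acvr2b at 0.02 under the block. Without day-6 replicate 2 neither receptor passed (0.98 for Acvr1b, and an adjusted p of 0.08 for Acvr2b), and without day-0 replicate 1 Acvr1b was 0.96. Nodal itself read 1183 and 1218 at day 6, against 1269 to 1368 at day 0. In the retinoic acid pathway, 2 of 13 rose, the retinaldehyde reductase Dhrs3 (1.45 ± 0.24) and the retinol dehydrogenase Rdh10 (1.22 ± 0.29), the second 0.89 with probe sets averaged.

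Of 12 PRC2 genes, 2 fell and 0 rose. Epop, an accessory subunit abundant in ES cells, read 582 and 559 at day 6, against 1187 to 2276 at day 0 (-1.51 ± 0.32). Suz12, a core subunit, fell by 1.09 on the log2 scale, but was -0.45 with the block and -0.74 with probe sets averaged. Ezh2 differed by -0.84 ± 0.19 (adjusted p = 0.00054), under 2-fold, and Ezh1 by 0.12 ± 0.13. The histone-binding subunit Rbbp7 read 5944 and 5897 at day 6, against 2999.7 to 3551 at day 0 (0.87 ± 0.09), also under 2-fold. Of 16 PRC1 genes, 2 rose and 4 fell. Phc1 (-1.23 ± 0.19) and Cbx7 (-1.21 ± 0.20, -0.62 with probe sets averaged) fell. Phc2, a paralogue of Phc1, rose (1.24 ± 0.20). Pcgf6 (-1.05 ± 0.15) and Kdm2b (-1.08 ± 0.41) fell and Yaf2 (1.01 ± 0.17) rose close to the threshold, and without day-0 replicate 5 the PRC1 counts were 1 higher and 2 lower. With the block Pcgf6 was -0.84 and Kdm2b turned to 0.21.

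Of 11 DNA methylation genes, 6 fell and 1 rose, with a median of -1.25. Tet2, a paralogue of Tet1, read 85.3 and 82.5 at day 6, against 377 to 502 at day 0 (-2.02 ± 0.33). Dnmt3b read 1258 and 1277 at day 6, against 3095 to 3819 at day 0, and Dnmt3l read 465 and 429 at day 6, against 2553, 2339, 2235, 2398 and 2861 at day 0. All day-6 values of the 3 genes lay below every day-0 value, as for 28.9% of all tested genes. With the block 4 of the 6 falls remained, without Dnmt3a and Uhrf1 (-0.85). The binding protein Mbd2, the 1 rise, was 0.91 with it. Germline genes, a class repressed by DNA methylation in most somatic cells, also went down: 13 of 20 fell and 0 rose, with a median of -1.27. Sycp3, of the meiotic chromosome axis, read 35.2 and 37.9 at day 6, against 201 to 238 at day 0 (-1.87 ± 0.40). Sycp1 (-1.74 ± 0.16) and Syce1 (-1.41 ± 0.15), of the central part of the synaptonemal complex, the piRNA factor Mael (-2.02 ± 0.34), the silencing factor Morc1 (-1.96 ± 0.38) and Sohlh2 (-1.54 ± 0.26) fell too. With the block 8 of the 13 kept a lower call and Ddx4, Dazl, Tex15, Hormad1 and Stk31 did not, with values of -0.80 to -0.72. Rhox5 (-1.56 ± 0.55) had an adjusted p of 0.12 without replicate 1 and 0.1 without replicate 2.

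Of 30 imprinted genes, 9 rose and 0 fell, and the median was 0.52. The growth factor Igf2 read 5484 and 5639.9 at day 6, against 321, 1954, 484, 687 and 590.3 at day 0 (3.01 ± 0.45, adjusted p = 1.3e-06). Mest read 6791 and 6884 at day 6, against 489.5 to 1229 at day 0 (2.88 ± 0.21), and Dlk1, a Notch-related membrane protein of progenitors, read 1268 and 1366 at day 6, against 106 to 181 at day 0 (2.88 ± 0.54). The day-0 arrays varied widely for Igf2, with replicate 2 the highest, but stayed under 40% of either day-6 array. Peg3 (1.93 ± 0.21), Peg10, Nnat, Gnas (1.58 ± 0.17), Impact (1.51 ± 0.24) and Sgce (1.44 ± 0.16) completed the 9; with probe sets averaged the last 3 were 0.30, 0.57 and 0.69. Paternally and maternally expressed genes cannot be separated by allele on these arrays. Cdkn1c (0.18 ± 0.36) and Plagl1 (0.96 ± 0.61) did not pass.

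Both inhibitors of the cell cycle from the Cdkn2 locus, a classic Polycomb target, rose. Cdkn2b read 944 and 859 at day 6, against 140.4, 129.9, 122, 130.2 and 99.1 at day 0 (2.58 ± 0.31, adjusted p = 1.2e-08). Cdkn2a read 187 and 210.3 at day 6, against 112, 18.6, 12.7, 30.7 and 28.0 at day 0 (1.81 ± 0.26, adjusted p = 3.7e-07), with replicate 1 well above the other day-0 arrays. Of 17 CDK inhibitors and cyclins 4 rose and 1 fell, the others being the D-type cyclin Ccnd2 (1.95 ± 0.25), Cdkn1a (1.39 ± 0.26, but 0.95 with the block) and the S-phase cyclin Ccne1 (-1.46 ± 0.16), which fell. Of 18 targets of p53, 8 rose and 0 fell, with a median of 0.75. Perp, a desmosomal protein, read 3033 and 3121 at day 6, against 374 to 577 at day 0 (2.70 ± 0.39). Plk2 (2.30 ± 0.48, 0.98 with probe sets averaged), Phlda3 (1.63 ± 0.30), Btg2 (1.42 ± 0.26) and Ccng1 (1.38 ± 0.25) rose, and the death receptor Fas rose to 96.6 and 68.0 at day 6, against 12.3 to 18.2 at day 0 (1.30 ± 0.18). Mdm2 (1.10 ± 0.26) was called only without the block (0.96).

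Of 25 proliferation genes 5 fell and 0 rose, namely Bub1 (-1.33 ± 0.37), Mcm3 (-1.26 ± 0.30), Kif11 (-1.25 ± 0.27), Aurkb (-1.12 ± 0.27) and Cdc6 (-1.02 ± 0.33). None of the 25 was called with the array set as a block, where the 5 lay between -0.57 and -0.14, and the list median of -0.57 stands beside -0.03 for all genes. Of 19 genes of glycolysis and hypoxia, 7 fell and 0 rose, with a median of -0.55. Hexokinase Hk2 read 726 and 704 at day 6, against 2082 to 2297 at day 0 (-1.57 ± 0.21), Bnip3 fell by 1.99 on the log2 scale, and Aldoc (-1.36 ± 0.36) and Pfkl (-1.29 ± 0.30) fell, though by under 2-fold with probe sets averaged (-0.78 and -0.61). Pdk1 (-0.32) and Egln3 (-0.74) lost the call with the block. Of 17 immediate early genes 3 rose and 2 fell: Egr1 read 125 and 126 at day 6, against 335 to 788 at day 0 (-1.74 ± 0.30), Klf6 rose by 1.92 ± 0.31, and Fosb (-1.06 ± 0.18), Atf3 (1.17 ± 0.29) and Btg2 made up the rest. Fosb was -0.91 without day-6 replicate 2, and -0.96 and -0.99 without day-0 replicates 1 and 4. None of 9 tested ribosomal protein genes was called, and their median was 0.27.

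The day-2 arrays divide the response into an early and a late step. Between day 0 and day 2, 156 genes rose (1.13%) and 329 fell (2.38%), and between day 2 and day 6, 893 rose (6.47%) and 358 fell (2.59%). With every array centred on its median the early split was 213 higher and 245 lower. The early step lies wholly across the 2 array sets, and with the set as a block 207 genes rose and 199 fell, of which 160 were among the 485 called without it. The late step lies within 1 array set. Since the 2 steps share the day-2 arrays, and the whole interval shares arrays with both, their values are given side by side only.

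Primed epiblast genes went up by day 2, when 7 of 15 were higher and 0 lower (8 and 0 with the block), and down after it, when 1 was higher and 10 lower. The growth factor Fgf5, the standard marker of that state, read 48.0 to 119 at day 0, 789 and 771 at day 2 and 34.4 and 39.6 at day 6 (early 3.05 ± 0.52, late -3.56 ± 0.62). The homeobox gene Otx2 read 157 to 394 at day 0, 1581 and 1746 at day 2 and 394 and 404 at day 6 (early 2.48 ± 0.48, or 1.34 with the block, late -1.97 ± 0.58). The kinase gene Pim2 read 171 to 470.1 at day 0, 2978 and 2906 at day 2 and 160.1 and 128.1 at day 6 (early 3.43 ± 0.36, late -4.08 ± 0.44). All 3 were back among or near the day-0 arrays at day 6, so the comparison of day 6 with day 0 does not show them. Fgf8 (2.95 ± 0.42, then -2.53 ± 0.50) and Eomes (1.46 ± 0.41, then -2.05 ± 0.49) had the same course, though the early step of Eomes was 0.89 with the block and not called. Eomes read 351 and 393 at day 2, and Nefl, a neurofilament gene, read 2124 and 2209.6 at day 2, with steps of 1.51 ± 0.43 and -3.18 ± 0.51, the early one 0.95 and not called with the block. 

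Naive genes fell at different steps. By day 2, 13 of 31 were lower (10 with the block), Klf4 with 156 and 156 at day 2 among them. Dnmt3l read 3803 and 3947 and Tdgf1 3485 and 3569.7 at day 2, levels near or above those of day 0, and both were lower by day 6 (late -3.03 ± 0.39 and -2.02 ± 0.46). Zscan10 (-1.36 ± 0.29), Gdf3 (-1.47 ± 0.31) and Utf1 (-1.46 ± 0.33) also fell in the late step, while Tfcp2l1 and Tbx3 rose in it. Of the 20 trophoblast and simple epithelial genes 1 rose by day 2, namely Eomes, and 10 between days 2 and 6. Esx1 read 71.4 and 96.9 at day 2, and Cdkn2b read 82.5 and 55.8 at day 2, with late steps of 2.86 ± 0.21 and 3.22 ± 0.37. The immediate early genes Fos and Dusp1 were low at day 2: Fos read 352 to 611 at day 0, 42.6 and 53.7 at day 2 and 406 and 442 at day 6. The BMP ligand Bmp4 likewise fell early (-1.54 ± 0.28) and rose late (2.52 ± 0.34). Mymx, a fusion factor of muscle cells, showed one of the 4 largest early falls (-2.96 ± 0.47).

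**Figure D4:**
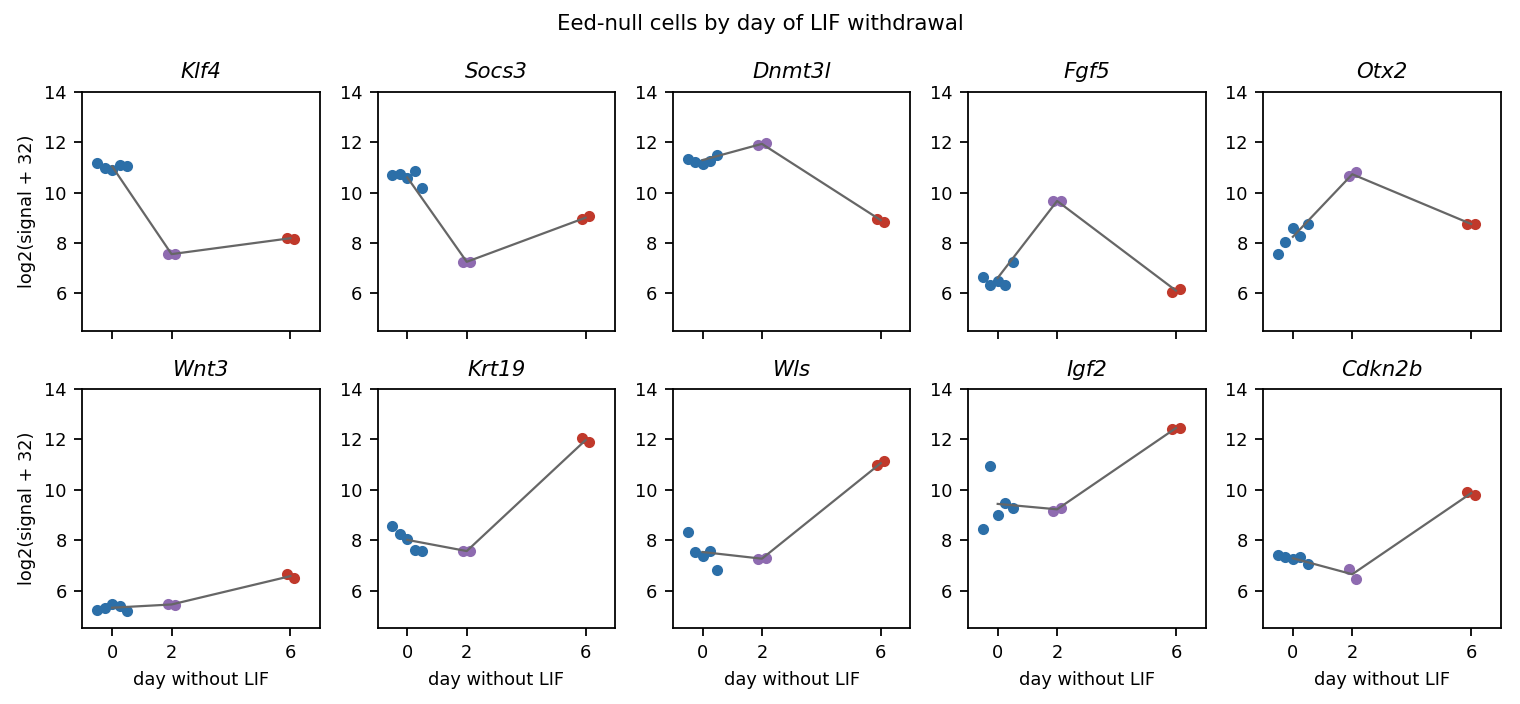
Values of log2(intensity + 32) against day of LIF withdrawal (0, 2 and 6, to scale) for 10 genes in Eed-null cells, with a point per array and a line through the group means. Fgf5 and Otx2 peak at day 2, Klf4 and Socs3 are lowest at day 2, and Wnt3, Krt19, Wls, Igf2 and Cdkn2b are highest at day 6.

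The responses of 2 genotypes share no array, and their difference was tested directly. Against wild-type cells, 314 genes (2.27%) responded with a higher change in Eed-null cells and 333 (2.41%) with a lower one, together 647 (4.69%); with arrays centred on their medians the split was 460 and 248. Limiting the wild-type day-6 arrays to replicates 3 to 5, which belong to the same array set as the Eed-null ones, gave 361 and 311, of which 524 were among the 647. All day-0 arrays belong to the first set, so both responses then span the 2 sets. Against Ezh2-null cells, 179 genes (1.3%) were higher and 324 (2.35%) lower, together 503 (3.64%), or 342 and 218 after centring; with Ezh2-null replicates 3 to 5 alone the counts were 371 and 372, with 384 shared. A difference in response can come from either genotype and from either day. Among the wild-type arrays E14tg1 occurs at day 0 alone, so the wild-type response partly mixes line and day.

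The primitive streak and mesoderm list was the most one-sided against wild type: 19 of 29 members had a lower response in Eed-null cells and 0 a higher one, with a median of -1.54, and 16 were lower with wild-type day-6 replicates 3 to 5 alone. Mixl1, a homeobox factor of the streak, read 36.2 and 30.1 in Eed-null cells at day 6, against 23.4 to 43.3 at day 0. It ranged over 283 to 1914 (median 1814) in wild-type cells at day 6, against 14.3 to 31.6 (median 28.0) at day 0 (difference -4.11 ± 0.48, adjusted p = 8.1e-08). Aplnr, the apelin receptor of early mesoderm, read 16.5 and 10.5 in Eed-null cells at day 6, against 7.5 to 15.7 at day 0. In wild-type cells it ranged over 667 to 1376 (median 852) at day 6, against 9.5 to 16.3 (median 11.6) at day 0 (difference -4.29 ± 0.22, adjusted p = 4.3e-19). No Eed-null day-6 array came near the wild-type range for either gene. Eomes, with 75.2 and 56.3 in Eed-null cells at day 6, ranged over 303 to 1855 (median 1273) in wild-type cells at day 6, against 61.2 to 150.0 (median 75.3) at day 0 (difference -3.48 ± 0.50). Lhx1 (-3.41 ± 0.29), Evx1 (-2.32 ± 0.29), Gsc (-2.10 ± 0.30), Pdgfra (-2.14 ± 0.51), Kdr (-2.01 ± 0.25) and Mesp1 (-1.48 ± 0.28) also responded less, as did Cxcr4 (-2.35 ± 0.28), a chemokine receptor of definitive endoderm and mesoderm. Against Ezh2-null cells, 3 of the 29 were lower, Twist1, Snai2 and Amot, and Mixl1 ranged over 42.3 to 59.8 (median 55.5) in Ezh2-null cells at day 6. Cdh2 read 384 and 285 in Eed-null cells at day 6, against 853 to 1410.2 (median 1259.9) in wild-type cells at day 6 and 24.7 to 129 (median 92.1) at day 0 (difference -2.49 ± 0.39), and Grhl2 went the other way (1.5 ± 0.20). Readouts of Wnt activity, Axin2 (-1.49 ± 0.20) and Sp5 (-1.83 ± 0.48), responded less than in wild type.

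Naive pluripotency genes differed the opposite way: 18 of 31 had a higher response in Eed-null cells, that is a smaller loss, and 0 a lower one, with a median of 1.13. With wild-type day-6 replicates 3 to 5 alone 18 were higher and 1 was lower. Nr0b1, with 321 and 261 in Eed-null cells at day 6, ranged over 16.5 to 49.0 (median 29.1) in wild-type cells at day 6, against 656 to 1863 (median 1555) at day 0, and its difference was 2.74 ± 0.50 (adjusted p = 0.00011). Esrrb, with 799.6 and 708 in Eed-null cells at day 6, ranged over 80.7 to 211 (median 96.2) in wild-type cells at day 6, against 1615 to 2766 (median 2142) at day 0 (difference 2.13 ± 0.44). Dppa5a, with 7263 and 7588 in Eed-null cells at day 6, ranged over 1521 to 3331 (median 1982) in wild-type cells at day 6, against 8044 to 9102 (median 8605) at day 0 (difference 1.87 ± 0.28). For all 3 genes both Eed-null day-6 arrays lay above every wild-type day-6 array. Sox2 (1.70 ± 0.45) and Pou5f1 (1.20 ± 0.32) differed too, though Pou5f1 was under 2-fold with wild-type replicates 3 to 5 (0.93). The responses of Klf4 differed by -0.06 ± 0.37, which did not pass the test. Against Ezh2-null cells 3 of the 31 were higher, Pou5f1, Gdf3 and Sall4, and 6 with Ezh2-null day-6 replicates 3 to 5 alone.

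**Figure D5:**
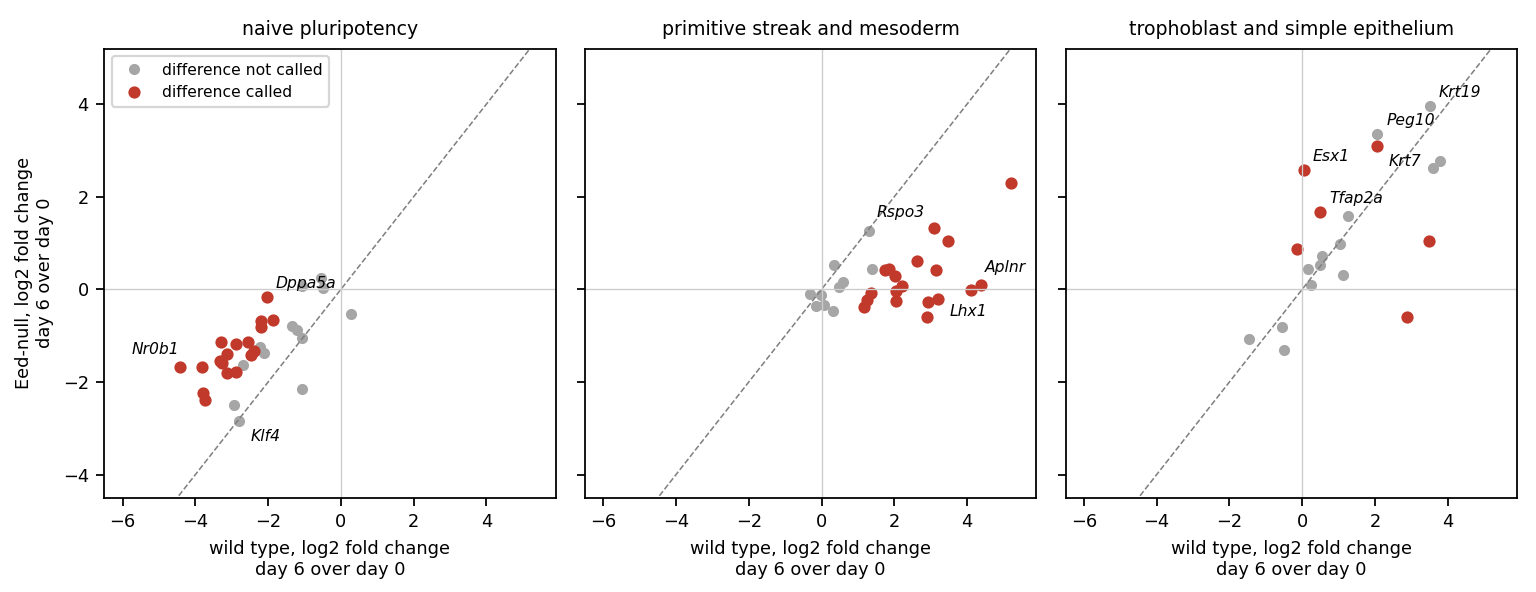
Log2 difference of day 6 and day 0 in Eed-null cells against that in wild-type cells for naive pluripotency, primitive streak and trophoblast genes, with red points where the responses differed in the test and a dashed line where they are equal. Most naive genes lie above the line, most streak genes below it, and Esx1 stands apart near 0 on the wild-type axis.

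Of single genes, Esx1, with 738 and 876 in Eed-null cells at day 6, ranged over 30.3 to 61.4 (median 55.9) in wild-type cells at day 6, against 32.2 to 66.8 (median 44.7) at day 0, and over 77.4 to 124 (median 99.2) in Ezh2-null cells at day 6, against 28.5 to 48.4 (median 43.6) at day 0. Its response differed by 2.54 ± 0.21 from wild type (adjusted p = 1e-11) and by 1.74 ± 0.21 from Ezh2-null (adjusted p = 3.9e-07), and both Eed-null day-6 arrays were more than 5 times above any day-0 or day-6 array of either. Tle5, a short corepressor of the Groucho family, read 564 and 716 in Eed-null cells at day 6, against 159 to 317 at day 0 (2.79 ± 0.43 from wild type and 1.60 ± 0.43 from Ezh2-null). The Eed-null change of Tle5 is smaller than its difference from wild type, part of which came from a lower level at day 6 than at day 0 in wild-type cells. Krt7 (1.02 ± 0.33), Tfap2a (1.16 ± 0.19), Mest (1.15 ± 0.26), Cdkn2a (1.13 ± 0.31) and Fas (1.19 ± 0.21) rose by more than in wild type. Lor, a cornified envelope gene, had a large difference (3.10 ± 0.45) but read 10.4 and 90.7 on the Eed-null day-6 arrays, and its difference came with wild-type day-0 values of 115 to 311 (median 241); with probe sets averaged it was 0.89. Dpys (2.95 ± 0.28) and Neurod1 (2.65 ± 0.49) were the other large positive differences. Neurod1 was not called in Eed-null cells at day 6 and fell in wild-type and Ezh2-null cells.

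Several endoderm and mesenchymal genes had a lower change in Eed-null cells than in both other genotypes. Sox17 differed by -2.91 ± 0.57 from wild type and -2.52 ± 0.58 from Ezh2-null, Col4a1 by -1.40 ± 0.34 and -2.26 ± 0.35, and Cubn by -1.68 ± 0.42 and -1.77 ± 0.43. Cubn fell in Eed-null cells (-1.70) and was called in neither wild-type nor Ezh2-null cells. In all, 8 of 28 endoderm genes were lower and 0 higher against each of the 2 genotypes, but with Ezh2-null day-6 replicates 3 to 5 alone 9 were lower and 3 higher than in Ezh2-null cells. Of 29 fibroblast genes, 9 were lower against wild type and 11 against Ezh2-null. With day-6 replicates 3 to 5 alone of those genotypes the counts were 6 and 15. Col3a1, a collagen of mesenchyme, read 273 and 251 in Eed-null cells at day 6, against 53.2 to 793 at day 0. In Ezh2-null cells it ranged over 560.1 to 3034 (median 915) at day 6, against 47.9 to 111 (median 85.3) at day 0 (difference -3.54 ± 0.54). Cdh11 (-4.54 ± 0.88 from wild type), Col1a1 (-3.50 ± 0.92), Postn (-3.65 ± 0.88 from Ezh2-null) and Tnc (-3.21 ± 0.92) also had a lower change. Feeder fibroblasts express these genes too, whose day-0 level in Eed-null cells varied between replicates as given above. Without day-6 replicate 1 the adjusted p of Tnc was 0.073 and without replicate 2 it was 0.055, and Postn had an adjusted p of 0.05 on the compared arrays alone. Zic1 rose by more than in wild type (1.32 ± 0.36) and by less than in Ezh2-null cells (-1.41 ± 0.36). The change of Otx2 was higher than in Ezh2-null cells (2.10 ± 0.60). Its adjusted p was 0.063 and 0.062 when 1 day-6 array or the other was left out. Otx2 itself was not called in Eed-null cells at day 6 (0.51, adjusted p = 0.42), while it fell in Ezh2-null cells. The change of Kifc1 was likewise higher than in Ezh2-null cells (2.05 ± 0.48). Hbb-bh1, an embryonic globin, differed from wild type by -3.44 ± 0.93, but -1.32 with wild-type day-6 replicates 3 to 5 alone, and its wild-type day-6 arrays ranged over 41.3 to 4662 (median 113). The CDK inhibitors Cdkn1a (-1.37 ± 0.32) and Cdkn2b (-1.14 ± 0.38) rose by less than in Ezh2-null cells.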

How the data were processed

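Total RNA was extracted with Trizol and labelled cRNA was hybridised to Affymetrix arrays, per the labels' protocols. The authors deposited 1 linear intensity per probe set and array, and the method of summary and scaling is not known here. Intensities lay between 0.4 and 33985.898, and array medians between 56.7 and 57.1 at day 6, 54.5 and 54.9 at day 2 and 58.3 and 62.2 at day 0 in Eed-null cells. The deposited intensities were used without renormalisation. The number of arrays limits the precision.

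In the platform annotation, 34945 of 45037 probe sets had a single gene symbol, 932 had several and 9160 had none. Each gene was represented by its brightest probe set, and 13807 of 18193 genes, those above their array's median on at least 2 arrays, were tested. One mean for each of 15 groups was fitted over 53 arrays on log2(value + 32) with limma (version 3.58.1, R 4.3.3). There were 38 residual degrees of freedom and 4.6 from the prior. Within a comparison, p-values were adjusted by Benjamini and Hochberg, and genes were called at an adjusted p under 0.05 and 2-fold. The pseudocount understates the change of dim genes. The method was tested on simulated data with independent noise and no effect of array set, line or feeder cells. That test does not bear on these effects. Tables and figures were made in Python 3.11.15 with pandas 2.3.3 and numpy 2.4.6.

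The arrays, the gene lists and the rules were chosen with earlier results of these data known. The text names the 12 largest rises and 12 largest falls among called genes whose arrays do not overlap, the 4 and 4 largest of each step, the 6 and 6 largest differences from wild type and the 4 and 4 from Ezh2-null, the called members of each list with up to 4 others of small p, and Eed, Ezh2, Ezh1, Suz12, Pou5f1, Nanog and Sox2. A few further list members and cell type markers are named to show genes that did not pass. Alternatives were other pseudocounts, normalisations, filters, fold limits, probe-set averages, single arrays left out, a replicate block and, chosen after seeing the data, the array set as a block. Promoter windows of 250 bases, from RefSeq on GRCm38.p6, were found for 11074 tested genes.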

Additional observations from a re-analysis of the deposited data

Results flagged for a closer look

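In the 5 Eed-null arrays at day 0, 21 of 182 named genes had 1 array set apart from the other 4 by more than 0.71 of the group's range. Chance flags about 1 in 20 groups; over all tested genes 1283 (9.3%) were set apart, 572 of them in replicate 1 and 423 in replicate 2. Replicate 5 was low for the fibroblast and contractile genes Col1a2 (121.7), Fbln2 (67.4), S100a4 (79.5), Vim (906.5), Acta2 (475.5) and Tagln (540.8). It was low too for Irs1 (23.8), Pfkp (1562.9), Fosb (30.7) and Bnip3 (1314.3), and high for Nnat (169.6). Replicate 1 was high for Manba (1194), Lama1 (1179), Id3 (703.3), Cdkn2a (111.7), Klf6 (582.4) and Bub1 (1313), and low for Pou5f1 (2479.8) and Wnt6 (165.6). Replicate 3 was low for Rhox5 (2328.4), and replicate 2 was low for Kif11 (676.1).

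The tested differences between the Eed-null and the wild-type response (log2) were largest on the positive side for Lor (3.10), Dpys (2.95), Tle5 (2.79), Nr0b1 (2.74), Neurod1 (2.65) and Esx1 (2.54). On the negative side they were largest for Cdh11 (-4.54), Aplnr (-4.29), Mixl1 (-4.11), Col1a1 (-3.50), Eomes (-3.48) and Hbb-bh1 (-3.44). Between the Eed-null and the Ezh2-null response they were largest for Dpys (2.38), Lor (2.35), Otx2 (2.10) and Kifc1 (2.05), and for Postn (-3.65), Col3a1 (-3.54), Srgn (-3.26) and Tnc (-3.21). With all probe sets averaged, Lor differed by 0.89 from wild type and 0.72 from Ezh2-null, and Dpys by 0.84 from Ezh2-null. Hbb-bh1 had an adjusted p of 0.088 on the compared arrays alone.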

How the results depend on the processing

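Counts are given for genes higher and lower at day 6 against day 0, then called at day 2 against day 0, at day 6 against day 2, and in the difference from the wild-type and the Ezh2-null response. A pseudocount 4 times larger gave 472 and 307, 208, 693, 287 and 216. A pseudocount of 8 gave 761 at day 2 against day 0 and 771 against Ezh2-null, and averaging all probe sets of a gene gave 269 and 317. Without a minimum fold the counts were 2628 and 2814, 2898, 3669, 2481 and 2607. A minimum of 1.5-fold gave 1685 and 1756, 1665, 2862, 1804 and 1847, and a minimum of 4-fold gave 121 and 36, 41, 182, 84 and 36. With the array set as a block 253 genes fell at day 6, and Otx2 (-0.64) and Kdm2b (0.21) changed direction, as Ezh1 (-0.15) did with probe sets averaged; the cause was not tested. Leaving out 1 array at a time gave 716 to 805 higher and 561 to 684 lower, then 340 to 544, 1138 to 1182, 499 to 681 and 397 to 624. Same-numbered arrays share only a number. With the replicate number as a block the counts were 721 and 625, 599, 1236, 743 and 709. Deviations of same-numbered day-6 and day-0 arrays correlated at 0.13 in both pairs. The 2 day-6 arrays deviate from their mean as mirror images, so the pairs are not 2 separate checks. Quantile normalisation put Eed past the threshold at -1.09, as did leaving out day-6 replicate 1, at -1.12. With 2 arrays at day 6, genes near 2-fold can change sides with any of these choices, and the dimmest genes are limited by the pseudocount.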

Other observations

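The 250 bases before the start of transcription were read for base composition in the genes with a listed promoter. A window was counted as CpG-rich at a GC content of at least 50% and an observed-to-expected CpG ratio of at least 0.6. Such windows made up 378 of 619 (61.1%) for genes that rose in Eed-null cells at day 6 and 322 of 506 (63.6%) for genes that fell, against 6548 of 11074 (59.1%) for all tested genes. Among genes also called with the array set as a block the shares were 236 of 390 (60.5%) for those that rose and 69 of 151 (45.7%) for those that fell. Among genes that moved in wild-type cells they were 359 of 629 (57.1%) for rises and 270 of 478 (56.5%) for falls. The shares are given as a description, with no test.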
